A study of Mus musculus with 8 samples.

Results

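The 10 genes described here cover prostaglandin synthesis, breakdown and receptors: Pla2g4a, Ptgs1, Ptgs2, Ptges, Ptges2, Ptges3, Tbxas1, Hpgd, Ptger2 and Ptger4. They were taken as all probes that the array files name with 1 of these symbols, which gave 18 probes for the 10 genes, out of 36944 genes named on the array. Transcripts were measured in RAW264.7, an established mouse macrophage line, on 8 one-colour (Cy3) arrays with 1 array per condition. One arm received no melatonin and the other 1 mM melatonin for 1 h, and each arm was sampled without lipopolysaccharide (LPS, from E. coli) and after 1, 3 and 5 h of LPS at 100 ng/ml. The melatonin arrays without LPS had the pretreatment alone. The layout addresses the time course of the LPS response and the effect of melatonin given beforehand. A level is the log2 processed signal minus the 75th percentile of its array, so 0 is that percentile, and levels of different probes are not compared.

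Prostaglandins are made from arachidonic acid, which cytosolic phospholipase A2 releases from membrane lipids. A cyclooxygenase turns arachidonic acid into prostaglandin H2, and terminal synthases turn that into prostaglandin E2, thromboxane and the other prostanoids. Macrophages that sense LPS are a classic source of prostaglandin E2, which acts on nearby cells through G protein-coupled receptors and is inactivated by 15-hydroxyprostaglandin dehydrogenase, the product of Hpgd.

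The promoters of Ptgs2, Ptges, Hpgd and Ptger4 are shown because the transcripts of these genes moved in different directions or by different amounts with LPS. Each runs from 150 bases before to 30 bases after the transcription start in RefSeq (build GRCm38.p6), with matches to the motifs searched in capitals.
Ptgs2: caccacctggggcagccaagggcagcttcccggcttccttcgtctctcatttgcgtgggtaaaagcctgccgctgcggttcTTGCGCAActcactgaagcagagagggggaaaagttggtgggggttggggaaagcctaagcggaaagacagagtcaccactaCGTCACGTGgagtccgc
Ptges: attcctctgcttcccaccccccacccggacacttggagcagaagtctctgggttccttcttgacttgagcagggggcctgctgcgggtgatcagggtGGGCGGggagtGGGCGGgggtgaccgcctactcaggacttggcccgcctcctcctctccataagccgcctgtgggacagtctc
Hpgd: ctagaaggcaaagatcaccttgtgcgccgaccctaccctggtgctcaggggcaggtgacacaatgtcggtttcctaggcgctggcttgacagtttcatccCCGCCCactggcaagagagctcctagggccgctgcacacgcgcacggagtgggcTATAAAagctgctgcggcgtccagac
Ptger4: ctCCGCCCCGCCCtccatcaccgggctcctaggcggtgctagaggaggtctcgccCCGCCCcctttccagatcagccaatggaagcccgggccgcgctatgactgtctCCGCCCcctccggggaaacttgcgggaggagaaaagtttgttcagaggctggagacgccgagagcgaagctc
The windows lie at chr1:150099881-150100060 on the plus strand for Ptgs2, chr2:30903268-30903447 on the minus strand for Ptges, chr8:56294402-56294581 on the plus strand for Hpgd and chr15:5244158-5244337 on the minus strand for Ptger4. All 10 genes matched the RefSeq table, with 11 promoters. Motifs were searched for on both strands: the CREB/ATF motif TGACG, the E-box CACGTG, the C/EBP motif TTGCNNAA, the AP-1 motif TGANTCA, the GC box GGGCGG, the TATA box TATAAA, the EGR motif GCGTGGGCG and the NF-kB motif. In the Ptgs2 window the capitals mark TTGCGCAA, a match to the C/EBP motif on both strands that begins at position -69 from the start, and the reverse complement of the CREB/ATF motif (CGTCA), which overlaps an E-box. Of 32851 RefSeq promoters of this length, 6.32% held the C/EBP motif, 15.6% the CREB/ATF motif and 5.09% the E-box. Ptges held 2 GC boxes and Ptger4 held 4, 2 of them overlapping at their ends, a motif found in 31.0% of promoters. Hpgd held 1 GC box, on the minus strand, and a TATA box that begins at base 5 after the start (8.37% of promoters). The windows of Ptgs1, Ptger2 and Pla2g4a held none of these motifs, which says only that the letters are not in these bases. A match is a description of the sequence, not evidence of a bound site.

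The probe signal at the 75th percentile ranged from 659.1 to 846.1 across arrays, and 47.0% to 53.0% of probes were well above background. Of 8 macrophage markers, 7 were well above background on all 8 arrays and Mertk on none. Epcam, Krt18 and Cdh1, markers of epithelium, were above background on none, while Cd3e, a T cell gene, was above it on all 8. Sample titles set the groups. Against them, the treatment label of 3 melatonin samples names the following LPS time, and that of the 5 h melatonin sample is without treatment. Across 1877 genes, the melatonin arrays titled 0, 1 and 3 h correlated at 0.888, 0.727 and 0.718 with the array of the same titled time without melatonin, and at 0.432, -0.585 and 0.636 with that of the next time. The 3 h array without melatonin correlated at 0.718 with the melatonin 3 h array and at 0.72 with the 5 h one. All 8 arrays shared 1 slide, with each arm in its own row and each LPS time in its own column. LPS time therefore cannot be told apart from slide column or hours in culture, nor melatonin from slide row. An LPS change compares the 2 arrays of a time with the 2 not given LPS. The melatonin difference compares 4 arrays with 4. Both come from an additive limma model with adjusted p-values over all 19979 genes tested. No condition has a second array, so p-values rest on the residual spread of this model. That spread mixes array noise, which may be technical, with any melatonin difference that changes with LPS time.

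Ptgs2, the inducible cyclooxygenase, had the widest range of the 10 genes. Without melatonin its level was -2.87 without LPS, 2.91 at 1 h, 6.35 at 3 h and 7.19 at 5 h. With melatonin it was -2.99, 1.81, 4.98 and 6.14 at the same times. Each later array was higher than the one before it in both arms, and no array with LPS came near those without. The 5 h rise was 9.59 log2 (SE 0.28, limma adjusted p = 7.43e-05), the largest among the 16547 genes well above background on all 4 arrays of that comparison. At 3 h it ranked 2nd of 17031 such genes, and at 1 h it ranked 7th of 17383. The step from 1 h to 3 h added 3.31 (SE 0.28, adjusted p = 0.00371). The step from 3 h to 5 h was 1.00 and did not pass the test (adjusted p = 0.217), so the order of these last levels is not settled beyond the spread. The probe lies at chromosome 1, 151954744 to 151954803, plus strand (mm9).

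Ptgs1, the constitutive cyclooxygenase, fell. Its measured level without melatonin went from -1.94 without LPS to -2.22, -3.25 and -4.58 at 1, 3 and 5 h, and with melatonin from -2.60 to -3.14, -3.64 and -4.31. The levels dropped at every step in both arms, and both 5 h arrays were not well above background. It was at least 3.70-fold lower at 5 h, where the bound sets the dim side at the lowest signal that counted as well above background. The bound has no p-value of its own. The measured 5 h change was -2.17 (adjusted p = 0.00332). It was -1.75 with a common floor (adjusted p = 0.00963) and -0.94 with normexp (adjusted p = 0.00769). The 3 h change was -1.17 (SE 0.30, adjusted p = 0.0318) and lost its call without a filter on dim probes and when either 3 h array or either array without LPS was left out (adjusted p up to 0.181). A second Ptgs1 probe, on another transcript model, was above background on no array. In a bulk culture, fewer cells that carry a transcript and less of it per cell cannot be told apart.

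**Figure D1:**
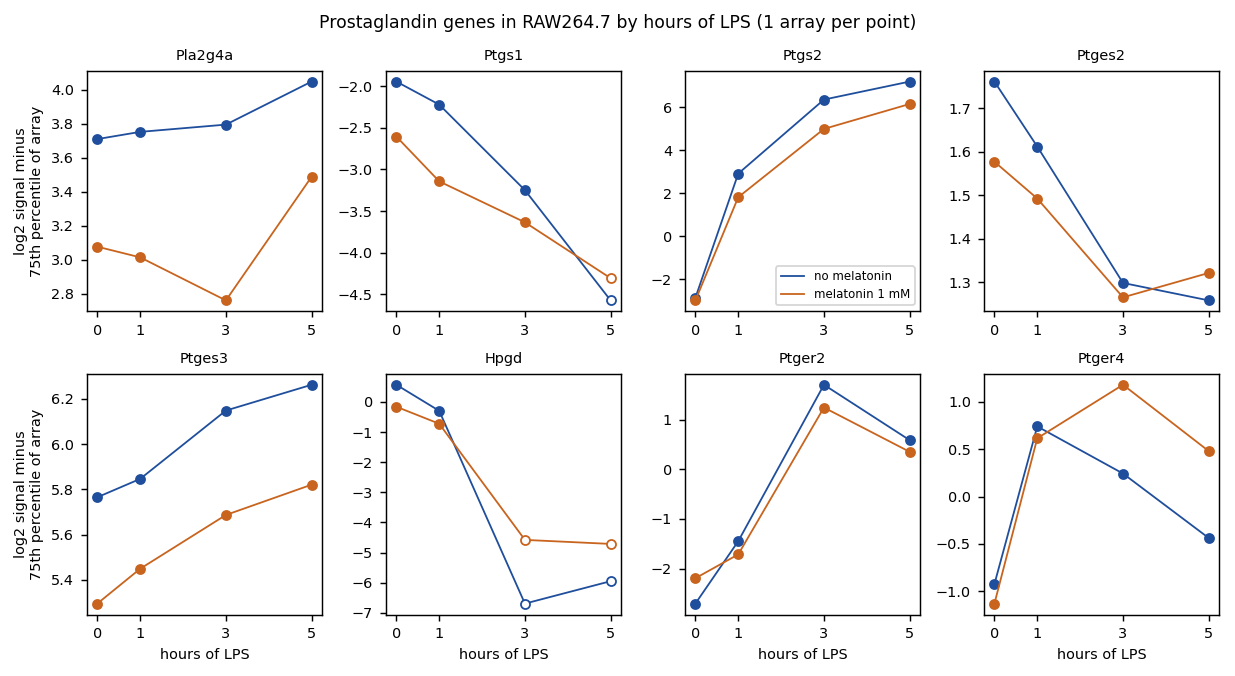
Levels (log2 signal minus the 75th percentile of the array) of 8 of the genes against hours of LPS, 1 array per point, blue without and orange with 1 mM melatonin; hollow points are not well above background, and vertical scales differ. Ptgs2 and Ptges3 climbed in both arms, Ptger2 was highest at 3 h, and Hpgd and Ptgs1 ended at hollow points in both arms.

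The 3 prostaglandin E synthases gave different readings. Ptges encodes the microsomal synthase usually induced along with Ptgs2, and its 3 probes did not give 1 answer. The probe nearest the 5′ end begins at base 364 of the RefSeq transcript (chromosome 2, 30748214 to 30748273, minus strand, mm9). It read -3.75, -2.93, -0.93 and -0.52 at 0, 1, 3 and 5 h without melatonin. With melatonin it read -4.84, -3.79, -2.43 and -1.97, the first not well above background. The levels rose at every step, and each melatonin array was below its partner. With each probe fitted on its own, a setting added after the disagreement was seen, 33% of all probes were called at 3 h and 43% at 5 h. In that fit this probe rose by 2.61 at 3 h (adjusted p = 0.000752) and 3.05 at 5 h (SE 0.20, adjusted p = 0.000324), against a baseline that includes the melatonin array not well above background. Within the melatonin arm the rise was at least 3.78-fold at 3 h and 5.22-fold at 5 h, as values of single arrays.

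The middle Ptges probe begins at base 740 (chromosome 2, 30747838 to 30747897). Its levels were -3.28, -1.59, -0.41 and -0.42 without melatonin and -3.71, -2.53, -0.96 and -0.56 with it. This probe was up at every LPS time in both arms and level between 3 and 5 h without melatonin. It rose by 2.81 at 3 h (adjusted p = 0.000573) and by 3.00 at 5 h (SE 0.20, adjusted p = 0.000315). Both probes kept these calls under all 13 other settings tried for them. The 1 h change of the middle probe was 1.43 (adjusted p = 0.0241, with 2.43% of all probes called), which was lost under 7 of 13 settings: with a common floor, without the intensity trend and when any of 5 arrays was left out (adjusted p up to 0.144).

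The Ptges probe farthest 3′ begins at base 3583 (chromosome 2, 30744995 to 30745054). Its levels were 4.35, 4.13, 4.08 and 3.99 without melatonin and 4.33, 4.08, 4.03 and 4.03 with it. All 8 arrays lay within 0.36 of each other, with the 2 arrays without LPS the highest. As the probe with the highest mean it stands for Ptges in the counts over genes, where it fell by 0.29 at 3 h (adjusted p = 0.0185) and by 0.33 at 5 h (adjusted p = 0.00857). The 3 h call was lost without the intensity trend and without any of the 6 arrays of 0, 1 and 3 h (adjusted p up to 0.115), and the 5 h call without the untreated array (0.0624). With the mean of the 3 probes the sign turned, to 0.71 at 1 h, 1.71 at 3 h and 1.91 at 5 h. What the far 3′ probe detects was not tested, and no direction is given here for Ptges as a gene.

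**Figure D2:**
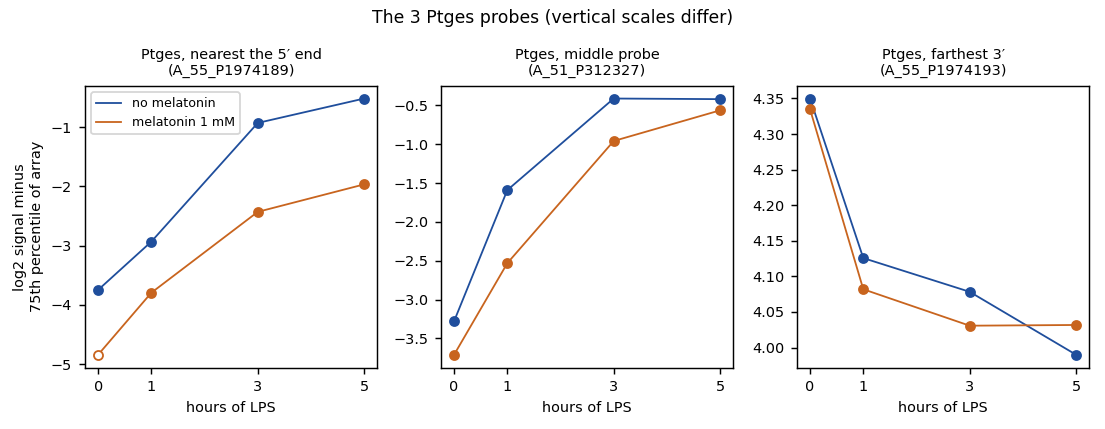
Levels of the 3 Ptges probes (log2 signal minus the 75th percentile of the array) against hours of LPS, 1 array per point, blue without and orange with melatonin; the hollow point is not well above background, and vertical scales differ. The probes at bases 364 and 740 climbed in both arms, while the probe at base 3583 stayed between 3.99 and 4.35.

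Ptges3, which encodes the cytosolic synthase that also serves as the Hsp90 co-chaperone p23, rose by a small amount with a narrow spread. Its levels were 5.77, 5.85, 6.15 and 6.26 without melatonin and 5.30, 5.45, 5.69 and 5.82 with it. The change was 0.12 at 1 h (adjusted p = 0.328), 0.39 at 3 h (SE 0.05, adjusted p = 0.0033) and 0.51 at 5 h (SE 0.05, adjusted p = 0.000943). The 3 h rise was 0.15 under quantile normalization, still called. Ptges2, the membrane-associated synthase, went the other way. Its levels were 1.76, 1.61, 1.30 and 1.26 without melatonin and 1.58, 1.49, 1.27 and 1.32 with it. The 3 h change was -0.39 (adjusted p = 0.0275) and the 5 h change -0.38 (adjusted p = 0.0227). Leaving out any array of 0, 1 or 3 h ended the call at 3 h (adjusted p up to 0.182), and leaving out the untreated array, either 1 h array or the 5 h array without melatonin ended it at 5 h (up to 0.155). Tbxas1, thromboxane synthase, had 3 probes, none of them well above background on any array, and was not tested.

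Hpgd, which encodes the enzyme that begins the inactivation of prostaglandin E2, dropped out of the measurable range. Its level was 0.57 without LPS and -0.30 at 1 h without melatonin, and -0.16 and -0.72 with it. At 3 and 5 h all 4 arrays were not well above background, with measured signals of -6.70 and -5.95 without melatonin and -4.58 and -4.71 with it. The probe passed the filter through its 4 arrays at 0 and 1 h alone, and the signals below background have no order among themselves. Hpgd was at least 24.6-fold lower at 3 h and at least 20.6-fold lower at 5 h, bounds that have no p-value of their own. The measured change, which limma tested, was -5.84 log2 at 3 h (adjusted p = 0.00316) and -5.54 at 5 h (adjusted p = 0.00242). It was -4.23 at both times with a common floor (adjusted p = 0.00399 and 0.0025), and -3.35 and -3.22 with normexp (adjusted p = 0.00115 and 0.000815). The bound was 32.8-fold at 3 h and 29.2-fold at 5 h without melatonin, and 18.5-fold and 14.6-fold with it, as values of single arrays. At 1 h the change was -0.72 (SE 0.70) and did not pass the test (adjusted p = 0.723). From 1 h to 3 h Hpgd was at least 15.0-fold lower, with a measured change of -5.13 (adjusted p = 0.0108). That call was lost without either 1 h array or without the 3 h array without melatonin. The probe lies at chromosome 8, 58799399 to 58799458, plus strand (mm9).

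Pla2g4a, the cytosolic phospholipase A2 that releases arachidonic acid, passed no LPS test by gene. Its brighter probe read 3.71, 3.75, 3.79 and 4.05 without melatonin and 3.08, 3.01, 2.76 and 3.49 with it. The arms did not overlap, and within each arm the highest array was that at 5 h. The 5 h change was 0.37 (SE 0.12, adjusted p = 0.0532) and missed the threshold, and the 1 h and 3 h changes were -0.01 and -0.12. 3 settings brought the 5 h change past the threshold, among them the omission of either 3 h array, and so did the fit of each probe on its own (adjusted p = 0.0496). A second probe, on another transcript model, ranged from -4.36 to -2.73 and passed no LPS test.

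Both prostaglandin E2 receptors that raise cyclic AMP rose. Ptger2, the EP2 receptor, read -2.71, -1.45, 1.70 and 0.59 without melatonin and -2.20, -1.71, 1.24 and 0.35 with it. Both 3 h arrays were the highest of their arm, and all 6 arrays with LPS lay above the 2 without. The change was 0.87 at 1 h (adjusted p = 0.157), 3.92 at 3 h (SE 0.23, adjusted p = 0.000498) and 2.92 at 5 h (SE 0.23, adjusted p = 0.000635). The step from 1 h to 3 h was 3.05 (adjusted p = 0.00286), ranked 37th among 17207 genes measured on both sides. The later drop of 1.00 from 3 h to 5 h appeared in both arms but did not pass the test (adjusted p = 0.158).

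Ptger4, the EP4 receptor, was measured by 2 probes that followed each other. The brighter read -0.92, 0.74, 0.24 and -0.44 without melatonin and -1.13, 0.62, 1.18 and 0.48 with it. The other read -4.13, -2.27, -2.54 and -3.14 without melatonin and -3.98, -2.37, -1.61 and -2.63 with it. Without melatonin both probes were highest at 1 h, and with melatonin both were highest at 3 h, a difference between single arrays that has no test. For the brighter probe the change was 1.71 at 1 h (adjusted p = 0.0775), 1.74 at 3 h (SE 0.33, adjusted p = 0.0123) and 1.05 at 5 h (adjusted p = 0.0461). The 3 h call was lost without either the 0 h or the 3 h melatonin array (adjusted p up to 0.069), and the 5 h call under 10 of 16 settings (up to 0.238). Fitted on its own, the dimmer probe rose by 1.98 at 3 h (adjusted p = 0.00385), under all 13 other settings, and by 1.74 at 1 h (adjusted p = 0.0332), which was lost under 8 of them (up to 0.231). Its 5 h rise of 1.17 (adjusted p = 0.0152) was lost without either 5 h array or the 0 h melatonin array (up to 0.0833). The remaining probe was above background on no array.

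The members were chosen with earlier results of these data known, so counts of them beside the share of all genes do not test an excess. Counted by gene, 1 of the 9 members tested was called at 1 h of LPS, Ptgs2, where 1.96% of all genes were called. At 3 h 8 of 9 were called, 4 raised and 4 lowered, where 33.8% of all genes were called, 18.6% raised and 15.1% lowered. At 5 h the count was again 8 of 9, with 4 raised and 4 lowered, where 44.3% were, 24.8% raised and 19.4% lowered. The raised genes at both times were Ptgs2, Ptger2, Ptger4 and Ptges3, and the lowered ones Ptgs1, Ptges2, Hpgd and, by its far 3′ probe, Ptges. Of the 3 h calls 4 (Hpgd, Ptger2, Ptges3 and Ptgs2) held under every setting in which the gene was tested, and of those at 5 h 5, these and Ptgs1. The filter on probes well above background on all 8 arrays leaves out Hpgd and Ptgs1. Calls at 3 h were fewer, among the members and over all genes, when any 1 array of 0, 1 or 3 h was left out. Of all calls at 3 h 55.1% were rises and at 5 h 56.1%, and under quantile normalization 42.8% and 43.5%. From 1 h to 3 h 4 members were called, Ptgs2, Ptger2 and Ptges3 upward and Hpgd downward, where 15.3% of all genes were called, 8.43% upward and 6.85% downward. Of those calls 55.2% were rises, and 42.9% under quantile normalization. The Ptges3 step of 0.27 (adjusted p = 0.0197) was lost under 7 of 16 settings, quantile normalization among them (adjusted p up to 0.187). Calls for this step were fewer, among the members and over all genes, when any 1 array of 1 or 3 h was left out. From 3 h to 5 h limma called no member, where 0.0951% of all genes were called. At an unadjusted p under 0.05, 5 of the 9 members and 2931 of all genes passed. Col1a2, the only one of 3 fibroblast markers above background, rose by 1.28 at 3 h (adjusted p = 0.0276), a call lost under 4 of 15 settings (adjusted p up to 0.14). The summed signal of the 3 went from between 0.0904 and 0.0922 of the 75th percentile without LPS to between 0.145 and 0.197 at 3 h. Col1a1 and Pdgfra were at background on every array, and the part of such cells in these results was not tested.

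**Figure D3:**
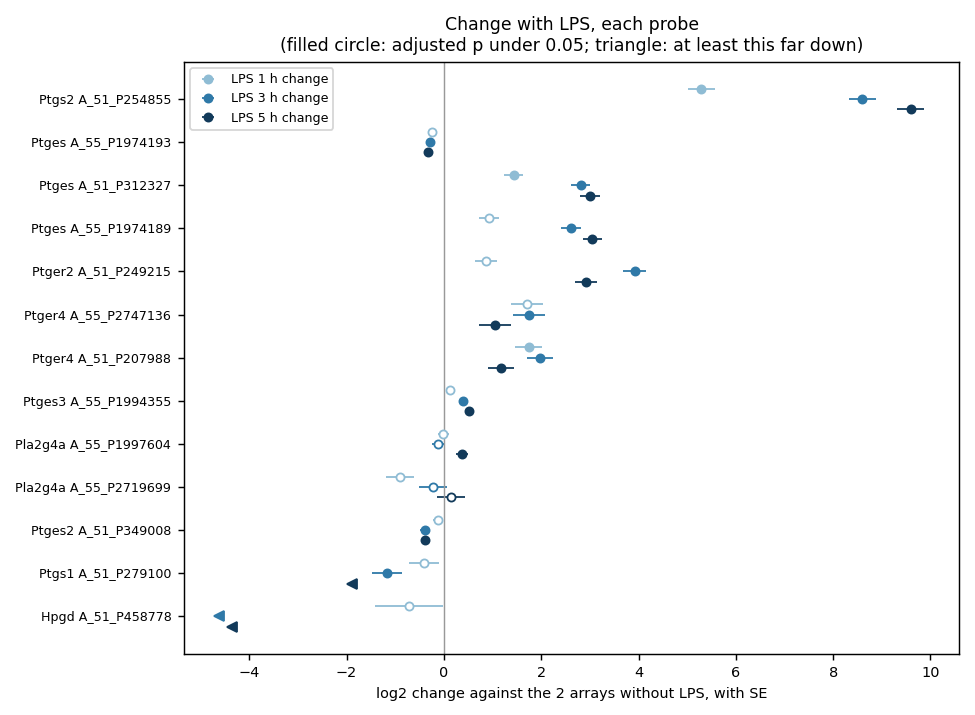
Log2 change at 1, 3 and 5 h of LPS against the 2 arrays without LPS for each of the 13 probes that passed the filter, with SE, from the fit of each probe on its own; filled circles have an adjusted p under 0.05 and triangles mark bounds where the LPS arrays were not well above background. Ptgs2 extends to 9.59 and Ptger2 to 3.92, 2 of the 3 Ptges probes lie near 3, and the Hpgd bounds are the farthest to the left.

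With melatonin, 3 of the 9 members were lower over the 4 times, Ptgs2, Pla2g4a and Ptges3, and none was higher. Of all genes 40.7% were called in this comparison, 15.4% as higher and 25.3% as lower, with a median difference of -0.1. The count of members called does not set them apart from all genes. Rises were 37.8% of all calls, and 52.4% under quantile normalization. Ptges3 was lower by 0.47, 0.40, 0.46 and 0.44 at 0, 1, 3 and 5 h, a mean of -0.44 (SE 0.03, adjusted p = 0.00223), lower at 4 of 4 times. Under quantile normalization the mean was -0.18 (adjusted p = 0.0106). Pla2g4a was lower by 0.63, 0.74, 1.03 and 0.56 on its brighter probe, a mean of -0.74 (SE 0.09, adjusted p = 0.00395), which held under every setting. Its dimmer probe gave -0.35 (adjusted p = 0.224), lower at 3 of 4 times.

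Ptgs2 was lower with melatonin by 0.12 without LPS, and by 1.10, 1.36 and 1.04 at 1, 3 and 5 h. The mean difference was -0.91 (SE 0.20, adjusted p = 0.0178), lower at 4 of 4 times, and -0.79 under quantile normalization. The call was lost when any of the 6 arrays with LPS was left out, with an adjusted p of up to 0.0712 and a difference as small as -0.75. Ptgs2 still rose by 9.13 at 5 h with melatonin, against 10.05 without, as values of single arrays. Of the Ptges probes, the one nearest the 5′ end was lower with melatonin by 1.23 (adjusted p = 0.00386, with 36.4% of all probes called), lower at 4 of 4 times, under all 13 other settings, and this mean includes the melatonin array not well above background. The middle one was lower by 0.52 (adjusted p = 0.0324), a call lost under 8 of 13 settings (adjusted p up to 0.107). The far 3′ probe differed by -0.02 (adjusted p = 0.783) and by 0.18 under quantile normalization (adjusted p = 0.0216).

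The remaining members passed no melatonin test with all 8 arrays. Ptger4 was 0.94 and 0.92 higher with melatonin at 3 and 5 h on its brighter probe, but 0.21 and 0.12 lower at 0 and 1 h, for a mean of 0.38 (adjusted p = 0.23). Ptger2 differed by -0.11 (adjusted p = 0.604), Ptges2 by -0.07 (adjusted p = 0.44) and Ptgs1, with both 5 h arrays not well above background, by -0.43 (adjusted p = 0.157). Without either array at 0 h the Ptger2 difference was -0.32 and was called (adjusted p = 0.0497 and 0.0498), and without either at 5 h that of Ptgs1 was -0.66 and was called (adjusted p = 0.0421 and 0.0431). Hpgd was lower with melatonin by 0.73 at 0 h and 0.43 at 1 h, as values of single arrays, and at 3 and 5 h neither arm was well above background, so no difference over the 4 times is given. A separate term asked whether the melatonin difference with LPS departs from that without. For Ptgs2 it was -1.04 (SE 0.18, adjusted p = 0.647, unadjusted p = 0.00191), and for Ptger2 -0.83 (SE 0.19, adjusted p = 0.909). In this term limma called no gene at all, 0% of those tested, while 751 had an unadjusted p under 0.05, 2 members (Ptgs2 and Ptger2) among them. Macrophage markers moved too: 5 of the 7 tested were lower with melatonin, where 25.3% of all genes were lower. Of those 5, Cd68 was lower by 0.48 (adjusted p = 0.00287) and Itgam turned to 0.05 under quantile normalization. The T cell gene Cd3e was lower by 0.37 (adjusted p = 0.00905), with Cd8a at background on all arrays and Cd3g above it on 1. The summed signal of the 3 T cell markers, which is mainly that of Cd3e, was 1.51 to 1.66 times the 75th percentile without melatonin and 1.23 to 1.32 with it. The part of these shifts in the melatonin differences was not tested.

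**Figure D4:**
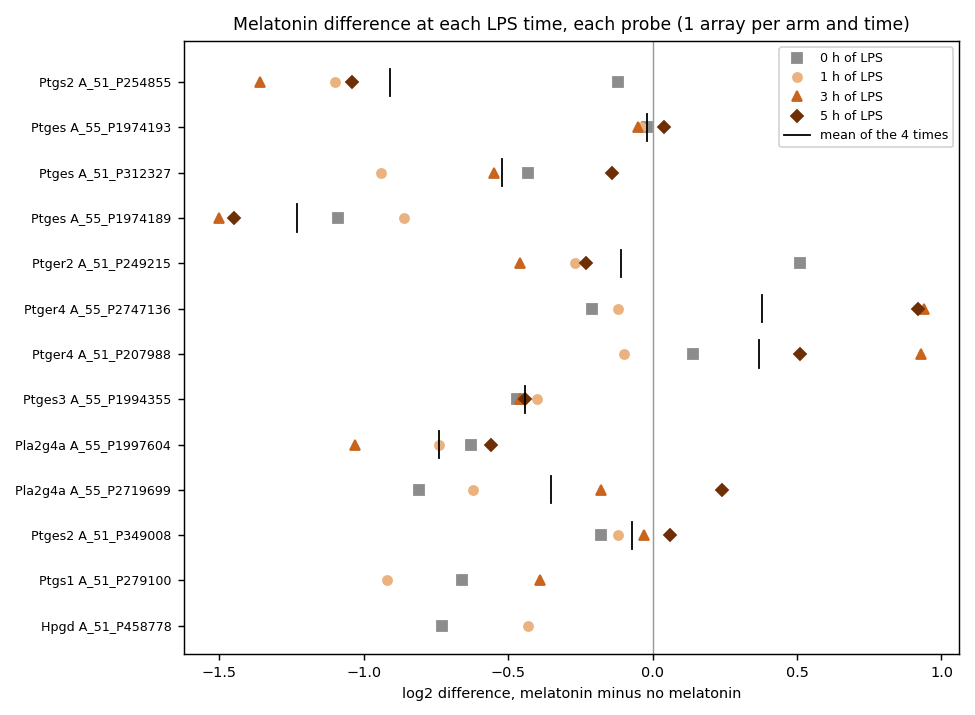
Log2 difference, melatonin minus no melatonin, at 0, 1, 3 and 5 h of LPS for each of the 13 probes, 1 array per arm and time; vertical bars are the mean of the 4 times, and times at which neither array was well above background are left out. Ptges3 has its 4 points between -0.47 and -0.40, Ptgs2 has its point without LPS at -0.12 and the others beyond -1, and Ptger4 lies near 0.9 at 3 h on both probes.

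Of 43 other genes of the pathway, 30 could be tested. They too were listed with earlier results of these data known, so their counts do not test an excess over all genes. At 3 h of LPS 4 rose and 12 fell, with a median change of -0.30 against 0.06 over all genes, and at 5 h 6 rose and 15 fell, with a median of -0.34 against 0.08. Of all genes 18.6% rose and 15.1% fell at 3 h, and 24.8% and 19.4% at 5 h. Of these calls, 6 of 16 at 3 h and 13 of 21 at 5 h held under every setting. The rises at both times include Ptgdr2, well above background only on the 1 and 3 h arrays without melatonin. Its call was lost under 8 of 15 settings at 3 h and 13 of 15 at 5 h. The falls include Dagla at both times and Ltb4r1 at 5 h, with the LPS arrays compared not well above background. Dagla was at least 2.51-fold lower at 3 h and 2.13-fold at 5 h, and Ltb4r1 at least 1.41-fold. The leukotriene branch, which makes the other main products of arachidonic acid, had no rise and 5 falls among 6 tested genes at 5 h (median -1.26). These 5 include Ltb4r1, known only by its bound, with a call lost under 5 of 15 settings. Alox5, 5-lipoxygenase, fell by 0.90 (SE 0.07, adjusted p = 0.00062) and its partner Alox5ap fell by 1.47 (SE 0.12, adjusted p = 0.000739). Ltc4s, leukotriene C4 synthase, fell by 1.39 (SE 0.08, adjusted p = 0.000342), and Cysltr1, a receptor for cysteinyl leukotrienes, fell by 2.23 (SE 0.13, adjusted p = 0.000312).

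Among 11 tested genes of arachidonate supply, 4 rose and 3 fell at 5 h. Of all genes 24.8% rose and 19.4% fell at that time, and the counts of these lists do not test an excess. The falls include Dagla, with both 5 h arrays not well above background. The rise of Pla2g4b turned to -0.42 with the mean of its probes. The secreted phospholipase Pla2g5 rose from 1.79 to 3.86 without melatonin and from 1.23 to 2.88 with it, by 1.86 over both arms (adjusted p = 0.0006). Acsl4, which attaches arachidonic acid to coenzyme A, rose by 1.12 (adjusted p = 0.000874), and the secreted phospholipase Pla2g2e fell by 1.03 (adjusted p = 0.00165). None of 6 other terminal synthases rose at 5 h and 4 fell, among them Akr1b3 by 0.90 (adjusted p = 0.00245), which has prostaglandin F synthase activity. Of 5 genes of further breakdown and transport 3 fell, among them the prostaglandin reductase Ptgr1 by 0.64 (adjusted p = 0.0061). Ptgir, the prostacyclin receptor, read 1.61, 1.20, 1.10 and 2.51 without melatonin and 1.18, 0.77, 0.90 and 1.96 with it, highest at 5 h in both arms, and its 5 h change was 0.84 (adjusted p = 0.00255). Of 7 other prostanoid receptors, Ptgir and Ptgdr2 were the 2 that could be tested.

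With melatonin 8 of these 30 genes were higher and 8 lower, where 15.4% and 25.3% of all genes were, and 8 of the 16 calls held under every setting. Dagla, 1 of the 8 higher, was well above background at 0 and 1 h alone, so the size of its difference is not read. Its call was lost with a common floor and with normexp. The higher ones included Prxl2b, which has prostaglandin F synthase activity, by 1.27 (SE 0.13, adjusted p = 0.00297) and Akr1b3 by 0.63 (adjusted p = 0.00455). The lower ones included Hpgds, the hematopoietic prostaglandin D synthase, which read 1.20, 1.13, 1.03 and 0.91 without melatonin and 0.38, 0.36, 0.08 and -0.14 with it. Its arms did not overlap, and the mean difference was -0.90 (SE 0.07, adjusted p = 0.00229). Pla2g5 was lower by 0.72 (adjusted p = 0.0057) and Cysltr1 by 0.68 (adjusted p = 0.00485).

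Genes of factors for some of the searched motifs were read on the same arrays, with none for AP-1, the E-box or the TATA box. Nfkb1, a subunit of NF-kB, rose by 2.71 at 3 h (adjusted p = 0.000267) and was lower with melatonin by 0.65 (adjusted p = 0.00552). The NF-kB motif was in none of the windows shown, and among the members only in that of Ptges3, where 5.32% of all promoters held it. Cebpd, a C/EBP factor, rose by 2.30 at 3 h (adjusted p = 0.00274), and its relative Cebpb by 1.11 at 5 h (adjusted p = 0.003). With melatonin Cebpd was lower by 0.76 (adjusted p = 0.0246), a call lost under 7 of 16 settings. The melatonin difference of Cebpb was -0.16 (adjusted p = 0.271). Egr1, which binds the EGR motif, rose by 5.60 at 1 h (adjusted p = 0.00979), a call lost under 3 of 16 settings (adjusted p up to 0.0653). Its melatonin difference was -0.23 (adjusted p = 0.645). Rela, the other main NF-kB subunit, rose by 0.80 at 1 h (adjusted p = 0.0292), 0.48 at 3 h (adjusted p = 0.0202) and 0.38 at 5 h (adjusted p = 0.0314), calls lost under 9, 6 and 10 of 16 settings. The melatonin difference of Rela was -0.19 (adjusted p = 0.0882). Creb1 and Sp1 passed no test. Ptgs2os2, a noncoding gene beside Ptgs2 that is also called lincRNA-Cox2 and was chosen after its values were seen, read -2.70, -2.16, 0.96 and 1.20 without melatonin. With melatonin it read -4.44, -3.43, -0.93 and -0.32, the first not well above background, and no test is given for it.

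The genes whose centred levels over the 8 arrays lay closest to those of Ptgs2 were Il1b, Csf2, Cish, Cxcl10 and Cd69, with root mean square differences of 0.62 to 0.95 log2. Of these, Csf2 and Cd69 were well above background on 6 of 8 arrays. None is given for Hpgd, which was at background on 4 of its 8 arrays. For the middle Ptges probe they were Nfkbib, Adora2b, Stk40, C5ar1 and Ehd1 (0.16 to 0.23), and for the probe nearest the 5′ end the first were Anxa13, well above background on 5 of 8 arrays, and Flrt2 (0.18 each). The far 3′ probe, with its narrow range, was closest to AK131900, Alg8, Stat5b, Taldo1 and Nek9 (0.04 to 0.05). These are descriptions over 8 arrays that share their LPS times, with no test.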

How the data were processed

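Intensity values came from Agilent Feature Extraction (12.0.3.1) as processed Cy3 signals, background-subtracted and detrended per the file headers, with flags (another kind of value) for spots well above background, saturated or outlying, deposited by the authors. Mean and local background intensity, deposited uncorrected, served the normexp alternative (offset 50). A deposited log2 table held the same sorted values on every array, as quantile normalization leaves them; no source used here names its tool. It served as an alternative.

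From these, log2 processed signal minus the 75th percentile of each array was computed. Of 62976 spots, 3671 control spots and outlier spots were left out, and no spot was saturated. Spots of a probe were averaged (56605 probes). Probes flagged well above background on 2 or more arrays were kept (30417 probes, 13 of the 18 member probes), and each gene was represented by its brightest kept probe on average (19979 genes). The lowest well-above-background signal of an array set the bounds. R 4.3.3 and limma 3.58.1 fitted LPS time (4 levels) plus melatonin with an intensity trend (3 residual degrees of freedom), and a melatonin by LPS term (2). 2-sided p-values were adjusted by Benjamini-Hochberg over all genes of a comparison, with 0.05 as the threshold, and the code was tested on simulated data. The number of arrays limits the precision. Coordinates of probes are the files' own (mm9). The genes named are the 10 members, gene lists of the pathway, markers and factors, and the 5 genes nearest in pattern to Ptgs2 and Ptges; those of Hpgd were left out after its 4 arrays at background were seen. Members and lists were chosen with earlier results of these data known. Alternatives covered filter, floor, background, scaling, deposited table, trend, probe rule and each array left out.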

Additional observations from a re-analysis of the deposited data

Results flagged for a closer look

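The change of Pla2g4a with LPS had opposite signs in the arms at 2 times, on its brighter probe. At 1 h it was 0.04 log2 without melatonin and -0.06 with it, and at 3 h it was 0.09 and -0.32. Each value compares single arrays, and the difference between the arms was not tested.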

How the results depend on the processing

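No paired analysis was possible because each condition has 1 array, beyond the additive model, which already matches the arms by LPS time. At 1 h of LPS 3 members were called with the mean of all probes of a gene and 3 with each probe on its own, against 1. Over all 19979 genes the mean of probes gave 484 calls, against 391. With each probe on its own, 738 of 30417 probes were called. With 1 array left out, the members called numbered 1 to 2 at 1 h, 4 to 8 at 3 h, 6 to 9 at 5 h, 2 to 4 for the step from 1 h to 3 h, 0 to 0 for the step from 3 h to 5 h, 2 to 4 with melatonin and 0 to 0 for the melatonin by LPS term. Over all genes these ranges were 94 to 318, 2489 to 6790, 4458 to 8347, 325 to 2932, 1 to 21, 4110 to 6750 and 0 to 40. The calls for Ptgs2, Ptger2 and Ptges3 at 3 and 5 h held under every alternative, and those for Hpgd under every one in which it was tested; the filter on probes well above background on all 8 arrays leaves out Hpgd and Ptgs1. Signs turned for Ptges with the mean of its probes (0.71 at 1 h, 1.71 at 3 h, 1.91 at 5 h and 1.00 from 1 h to 3 h), where the probes themselves disagree. They also turned for the Ptges melatonin difference under quantile normalization (0.18) and in the deposited table (0.18), for Pla2g4b with the mean of its probes (-0.44 at 3 h, -0.42 at 5 h), and for the Itgam melatonin difference under quantile normalization (0.05) and in the deposited table (0.05); the cause was not tested. Changes called under neither setting also turned. With the mean of all probes these were Pla2g4a from 1 h to 3 h (0.29) and in the melatonin by LPS term (0.24) and Ptges from 3 h to 5 h (0.20). The 3 h change of the dimmer Pla2g4a probe turned with normexp (0.01). The Hpgd melatonin difference of 0.55 turned with a common floor (-0.29) and with normexp (-0.08). It includes the 3 h and 5 h arrays, all at background, so its sign is not read. With 1 array left out, values ranged from -1.57 to 0.14 for Hpgd at 1 h, -0.08 to 0.06 for Pla2g4a at 1 h, -0.31 to 0.08 at 3 h and -0.30 to 0.09 from 1 h to 3 h, and -0.34 to 0.40 for Ptger4 from 1 h to 3 h. From 3 h to 5 h they ranged from -0.74 to 1.35 for Hpgd, with every array of that step at background, and -0.08 to 0.10 for Ptges2. By probe, the ranges were -0.53 to 0.09 at 3 h, -0.25 to 0.52 at 5 h and -0.03 to 0.75 from 3 h to 5 h for the dimmer Pla2g4a probe, -0.13 to 0.62 from 1 h to 3 h for the dimmer Ptger4 probe, and -0.05 to 0.44 from 3 h to 5 h and -0.31 to 0.09 in the melatonin by LPS term for the middle Ptges probe. Of the recomputed values of single genes and probes, 2544 kept direction and side of the threshold, 363 lost the call, 10 gained it and 35 turned, 25 of them called under neither setting. Signal over background limits Hpgd and Ptgs1 to bounds and leaves Tbxas1 without a level.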
